A study of Mus musculus with 24 samples.

Results

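The genes described here encode the inhibitors of the cyclin-dependent kinases (CDKs) and the proteins of the retinoblastoma (Rb) family. They were taken by symbol from the deposited read counts. The 10 genes were Cdkn1a, Cdkn1b and Cdkn1c of the Cip/Kip inhibitors, Cdkn2a, Cdkn2b, Cdkn2c and Cdkn2d of the INK4 inhibitors, and Rb1, Rbl1 and Rbl2 of the Rb family. All 10 were present among 48321 gene symbols, and 9 had enough reads for a test. The exception was Cdkn2a.

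Adult C57BL/6 mice were used, and hippocampal cells were sorted by their green fluorescence (GFP). In the Notch2 CKO group the animals carried Hes5::CreERT2, Notch2 flox/flox and Rosa26R-CAG::GFP, and in the wild-type (WT) group they carried Hes5::CreERT2, Notch2 wt/wt and Rosa26R-CAG::GFP. Both genotypes thus shared the reporter and a Cre that tamoxifen activates, under control of Hes5, which neural stem cells express in response to Notch. Both received tamoxifen for 5 days and were sampled after a chase of 1 day, so the sort was aimed at cells whose reporter had recombined. Each genotype had 3 pools of animals, and each pool had 2 libraries made with Smart-Seq2 and Nextera XT. The labels do not say whether an animal contributed to more than 1 pool, so the p-values speak of the spread between the pools and no more. The pools were of sorted cells, in which fewer cells of a type and less RNA per cell cannot be told apart.

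Cell division in the adult hippocampal stem cell niche is rare, and the genes described here encode its main brakes. INK4 proteins bind CDK4 and CDK6 and keep them from D-type cyclins. Cip/Kip proteins bind complexes of cyclins with CDKs, above all those of CDK2. Active CDKs phosphorylate the Rb family, which when unphosphorylated holds E2F transcription factors and keeps the genes of S phase off. Cdkn1a, Cdkn1b and Cdkn1c have each been described in mice as genes that keep adult neural stem cells quiescent. Notch signalling, which passes from the receptor to the transcription factor RBPJ and to the Hes repressors, is a known upstream pathway of quiescence in the same cells.

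Reads in genes numbered 41810239 to 53984963 in CKO pools and 40366579 to 52682485 in WT pools. Levels are read counts per 1000000 reads (CPM), at library sizes adjusted by the trimmed mean of M values (TMM), where 1 read was worth 0.0175 to 0.0265 CPM. Notch2, the targeted gene, was at 65.3, 116 and 121 CPM in CKO pools 1, 2 and 3, against 99.3, 146 and 303 CPM in WT pools 1, 2 and 3. Its groups overlapped (log2 fold change -0.86, SE 0.45, edgeR adjusted p = 0.79), and a count over the whole gene includes any exon outside the floxed part, so it is no check of the labels. Hes5 was at 361 to 400 CPM in CKO pools and 234 to 495 CPM in WT pools. All 12 markers of radial glia-like stem cells had reads in every pool, with summed levels of 16700 to 26000 CPM in CKO pools and 19400 to 20300 CPM in WT pools. All 7 mature astrocyte markers had reads in every pool too, summing to 4740 to 6780 CPM in CKO pools and 4300 to 5790 CPM in WT pools. All 10 oligodendrocyte markers also had reads in every pool, summing to 3300 to 5710 CPM in CKO pools and 2430 to 6610 CPM in WT pools. So did all 8 oligodendrocyte precursor markers, summing to 1320 to 3840 CPM in CKO pools and 2150 to 3290 CPM in WT pools. WT pool 1 stood apart from the rest in other markers. The 7 endothelial markers summed to 8.88 to 33.8 CPM in CKO pools, against 1.09 to 111 CPM in WT pools, with the highest value in WT pool 1. The 8 excitatory neuron markers summed to 140 to 198 CPM in CKO pools, against 618 CPM in WT pool 1 and 166 and 181 CPM in WT pools 2 and 3. The 5 red blood cell markers summed to 14.3 to 118 CPM in CKO pools, against 392 CPM in WT pool 1 and 17.5 and 54.8 CPM in WT pools 2 and 3. In CKO pool 3, 9 microglia markers summed to 707 CPM, against 274 to 354 CPM in WT pools, and 1 of the 9, Aif1, was at 0 in at least 1 pool. Values without WT pool 1 are given below for each gene, and the part of these cells in the results was not tested.

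The level of the genes relative to each other was set on a length-corrected scale, as CPM per kilobase (kb) of annotated exon, averaged over the 6 pools. Cdkn2d, which encodes p19-Ink4d, led with 44.9 ± 17.7 CPM per kb (SD, n = 6 pools), above 93.1% of the tested genes with an exon length. It ranged from 25.3 to 70.2 CPM per kb and did not overlap with any other of the 10 genes. The next gene, Cdkn2c, was at 5.92 ± 3.41 CPM per kb, and within a pool the ratio of Cdkn2d to Cdkn2c ran from 4.32 in CKO pool 2 to 28.2 in WT pool 3. A closely spaced set followed. Rb1 was at 5.58 ± 2.74, Rbl2 at 5.24 ± 1.99, Cdkn1b at 5.16 ± 1.39 and Cdkn1a at 3.56 ± 1.75 CPM per kb, beside a median of 3.19 CPM per kb over 20712 tested genes. Cdkn2b was at 2.64 ± 3.32, Rbl1 at 1.30 ± 0.942 and Cdkn1c at 0.976 ± 1.05 CPM per kb. From Cdkn2c down to Cdkn1c each gene overlapped with its neighbour in the order across the pools, so no step between neighbours in that stretch exceeded the spread between pools.

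**Figure D1:**
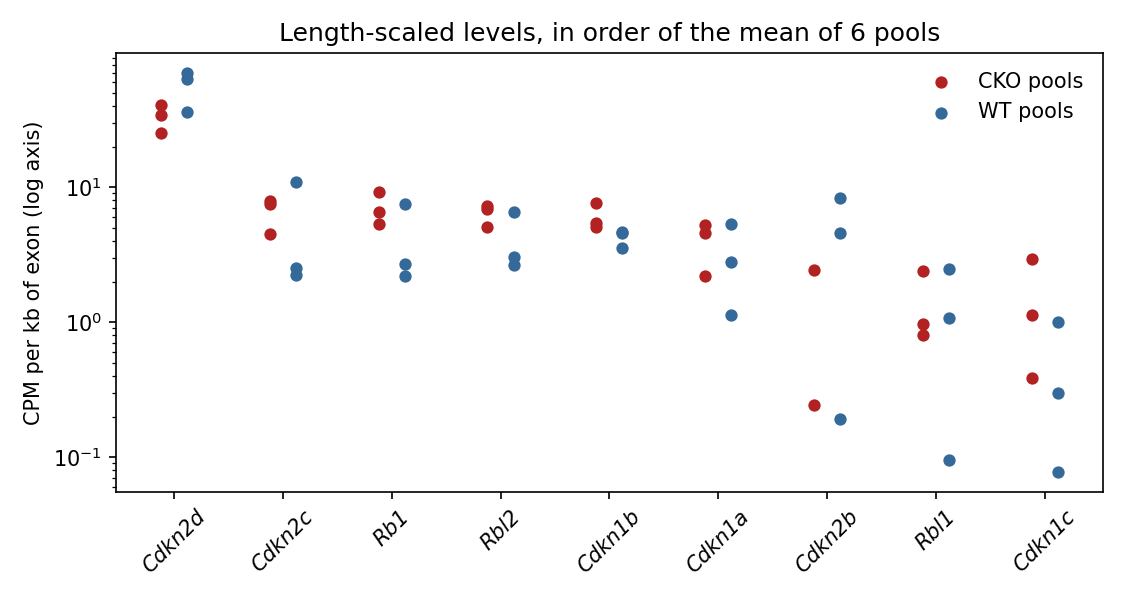
Length-corrected levels (CPM per kb of exon, log axis) of the 9 genes other than Cdkn2a, in the order of their means, with CKO pools (red) left of WT pools (blue) and 1 point per pool; a value of 0 (Cdkn2b in CKO pool 3) cannot be drawn. Cdkn2d lies between 25.3 and 70.2 CPM per kb, clear of every other gene.

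Cdkn2a encodes p16-Ink4a and, from another reading frame, the p53 activator p19-Arf, and a gene-level count cannot separate them. It lies on chromosome 4 at 89274471 to 89294653, minus strand (GRCm38). In the whole study Cdkn2a had 1 read, in library 2 of CKO pool 1. The other 5 pools had 0 reads, and a count of 0 allows up to 3 reads, or 0.059 to 0.0795 CPM in these pools. Cdkn2a was therefore not detectable at this depth outside that library. No fold change is given for it.

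Promoters of 3 genes were chosen for print. Cdkn1b and Cdkn2d are the inhibitors with the highest length-corrected level in their subfamilies, and Rbl1 has the one window with an E2F site. RefSeq windows on GRCm38.p6 (250 bases before to 50 after each start site) were matched for 8 of the 10 genes, which gave 11 windows. Both strands were searched for the Hes class C site (CACGCG), the RBPJ core (TGGGAA) and the E2F site (TTTCGCGC or TTTGGCGC), whose letters do not overlap in the windows printed. Capitals mark the matches, with positions counted from the start site. In the window of Cdkn1b (chr6:134920151-134920450, plus strand) they mark a class C site at -172. In that of Cdkn2d (chr9:21291160-21291459, minus strand) they mark a class C site at -229 and an RBPJ core at -209, both read on the opposite strand (CGCGTG and TTCCCA). In that of Rbl1 (chr2:157204485-157204784, minus strand) they mark an E2F site at -18.
Cdkn1b: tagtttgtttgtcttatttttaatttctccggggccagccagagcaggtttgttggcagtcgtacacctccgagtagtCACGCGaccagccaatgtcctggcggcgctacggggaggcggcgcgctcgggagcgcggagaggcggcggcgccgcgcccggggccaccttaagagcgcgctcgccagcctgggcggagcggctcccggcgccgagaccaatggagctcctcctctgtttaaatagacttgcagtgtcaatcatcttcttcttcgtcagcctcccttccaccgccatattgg
Cdkn2d: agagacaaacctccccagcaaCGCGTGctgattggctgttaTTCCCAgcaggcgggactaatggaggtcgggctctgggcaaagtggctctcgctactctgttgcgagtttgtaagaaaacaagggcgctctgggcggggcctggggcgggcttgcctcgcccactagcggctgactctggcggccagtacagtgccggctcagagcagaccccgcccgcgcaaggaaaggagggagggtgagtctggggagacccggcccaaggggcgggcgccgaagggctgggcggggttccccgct
Rbl1: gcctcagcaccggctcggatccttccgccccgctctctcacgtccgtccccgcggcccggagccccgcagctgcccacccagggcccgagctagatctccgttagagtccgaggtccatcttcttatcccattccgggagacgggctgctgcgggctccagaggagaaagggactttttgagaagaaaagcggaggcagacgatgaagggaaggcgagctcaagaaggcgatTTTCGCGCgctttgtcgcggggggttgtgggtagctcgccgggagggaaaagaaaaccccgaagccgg
The class C site was in 3 of the 11 windows, those of Cdkn1b, Cdkn2d and Cdkn2a, and in 9.27% of 32851 RefSeq promoters. The RBPJ core was in 4 of the 11 windows, of Cdkn2d, Rbl2, Cdkn1a and Cdkn2a, and in 25.6% of the promoters. The E2F site was in the Rbl1 window alone among the 11, and in 0.813% of the promoters. These are matches of letters in short windows, and no file of the study measured binding there.

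Between genotypes, none of the 9 tested genes passed the adjusted threshold in edgeR's quasi-likelihood test, in a study where 0% of 21477 genes did. None passed at an unadjusted p under 0.05 either, where 5.91% of all genes did. DESeq2 and limma-voom called none of the 9 at an adjusted p under 0.05, and limma-voom gave 1 of them, Rb1, an unadjusted p under 0.05 (p = 0.0307). Of the 9 genes, 7 had a log2 fold change above 0 and 2 below it, against 47.2% of all genes above 0. The median log2 fold change of the 9 was 0.38, beside -0.06 over all genes. Only Cdkn1b had pools that did not overlap between the genotypes, 1 of 9 genes beside 15.8% of all genes. It was higher in CKO, as 7.67% of all genes were.

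**Figure D2:**
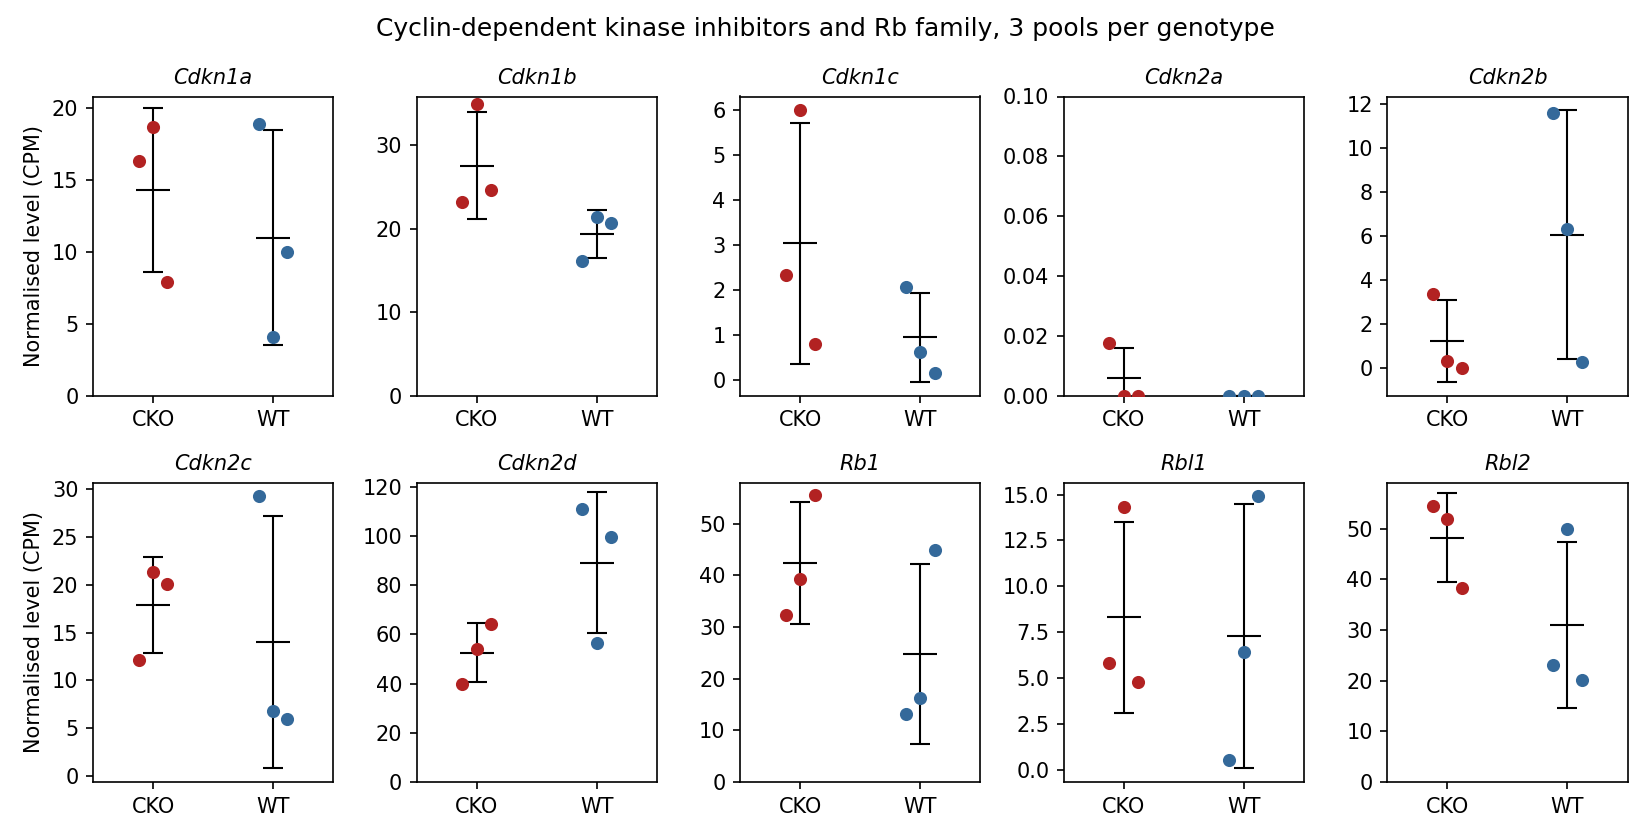
CPM of each of the 10 genes, 1 point per pool, with CKO pools (red) left of WT pools (blue) in every panel; dashes are means and error bars SD (n = 3 each). In Cdkn1b the lowest CKO pool (23.2 CPM) lies above the highest WT pool (21.4 CPM), and in the other 8 tested genes the pools overlap.

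Cdkn1b encodes p27-Kip1, an inhibitor of CDK2 complexes that holds many cells out of cycle. The gene spans 134920401 to 134925513 on chromosome 6, plus strand, and shares no exon base with another gene. Cdkn1b was at 23.2, 34.9 and 24.6 CPM in CKO pools 1, 2 and 3, against 16.1, 21.4 and 20.7 CPM in WT pools 1, 2 and 3. Every CKO pool was above every WT pool. The mean was 27.6 ± 6.38 CPM in CKO pools and 19.4 ± 2.88 CPM in WT pools (SD, n = 3 each), and the log2 fold change was 0.51 (SE 0.34, 95% interval -0.30 to 1.32, edgeR adjusted p = 0.80). The exact permutation test gave p = 0.1, the smallest that 3 against 3 pools allow. Without WT pool 1 the log2 fold change was 0.40, and without CKO pool 2 it was 0.31 (unadjusted p = 0.486).

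Cdkn1a encodes p21-Cip1, the inhibitor that p53 induces. Its position is chromosome 17, 29090976 to 29100727, plus strand, and 7.68% of its exon bases overlap with AC167363.2. Cdkn1a was at 16.3, 18.7 and 7.87 CPM in CKO pools 1, 2 and 3, against 18.9, 4.06 and 9.99 CPM in WT pools 1, 2 and 3. The highest value belonged to WT pool 1 and the lowest to WT pool 2, so the WT pools enclosed all CKO pools. The log2 fold change of Cdkn1a was 0.38 (SE 0.65, 95% interval -1.16 to 1.92, edgeR adjusted p = 0.897). It was 1.03 without WT pool 1, 0.14 without CKO pool 2 and 0.05 without WT pool 2.

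Cdkn1c encodes p57-Kip2, an inhibitor expressed from the maternal allele of an imprinted locus. The gene spans 143458339 to 143461050 on chromosome 7, minus strand, and 30.7% of its exon bases overlap with the antisense gene Gm44732, from which reads cannot be told apart without strand. Reads in exon bases shared by counted genes, as in Cdkn1c, Rb1 and Rbl2, may also have been set aside as ambiguous. That would lower the level of these genes by an amount that was not tested. AC167363.2, which overlaps with Cdkn1a, and Gm45464, which overlaps with Rbl2, were not among the symbols counted. Cdkn1c was at 2.33, 5.99 and 0.787 CPM in CKO pools 1, 2 and 3, against 2.06, 0.614 and 0.159 CPM in WT pools 1, 2 and 3. The 2 highest values were in CKO pools 1 and 2, but WT pool 1 was above CKO pool 3. The log2 fold change of Cdkn1c was 1.68 (SE 1.17, 95% interval -1.08 to 4.44, edgeR adjusted p = 0.80), with 2.97 without WT pool 1 and 0.72 without CKO pool 2.

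Among the INK4 genes, Cdkn2d had the smallest p of the 9, without passing. Its position is chromosome 9, 21288410 to 21291407, minus strand, and it shares no exon base with another gene. Cdkn2d was at 39.8, 53.9 and 64.0 CPM in CKO pools 1, 2 and 3, against 111, 56.6 and 99.5 CPM in WT pools 1, 2 and 3. CKO pool 3 was above WT pool 2, and otherwise each CKO pool was below each WT pool. The mean was 52.6 ± 12.1 CPM in CKO pools and 88.9 ± 28.5 CPM in WT pools (SD, n = 3 each). Its log2 fold change was -0.76 (SE 0.33, 95% interval -1.55 to 0.03), with an unadjusted p of 0.0574 and an adjusted p of 0.79 in edgeR. Without WT pool 1 it was -0.56. The exact permutation p was 0.2.

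Cdkn2c encodes p18-Ink4c, another CDK4 and CDK6 inhibitor. Its position is chromosome 4, 109660876 to 109667189, minus strand, with no exon base shared. Cdkn2c was at 12.1, 21.3 and 20.1 CPM in CKO pools 1, 2 and 3, against 29.2, 6.80 and 6.01 CPM in WT pools 1, 2 and 3. WT pool 1 was the highest of all and the other 2 WT pools the lowest. Its log2 fold change was 0.35 (SE 0.69, 95% interval -1.28 to 1.97, edgeR adjusted p = 0.914). It was 1.48 without WT pool 1 (unadjusted p = 0.0187, adjusted p = 0.848 in edgeR) and -0.03 without WT pool 3. Both the size and the sign of the fold change thus rested on which WT pools were included.

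Cdkn2b encodes p15-Ink4b, which TGF-beta induces in many cells. Next to Cdkn2a, it spans 89306299 to 89311039 on the minus strand of chromosome 4. Cdkn2b was at 3.40, 0.336 and 0 CPM in CKO pools 1, 2 and 3, against 11.6, 6.35 and 0.265 CPM in WT pools 1, 2 and 3. It was unevenly spread within both genotypes, and WT pool 3 was as low as the low CKO pools. For Cdkn2b the log2 fold change was -2.28 (SE 1.89, 95% interval -6.74 to 2.17, edgeR adjusted p = 0.816). It was -1.37 without WT pool 1 and -5.16 without CKO pool 1.

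In the Rb family, Rb1 encodes the retinoblastoma protein. The gene lies on chromosome 14 at 73183673 to 73325822, minus strand, and 14.9% of its exon bases overlap with Rcbtb2 or Lpar6. Rb1 was at 32.4, 39.2 and 55.5 CPM in CKO pools 1, 2 and 3, against 13.2, 16.2 and 44.8 CPM in WT pools 1, 2 and 3. WT pools 1 and 2 were below every CKO pool, while WT pool 3 was above 2 of them. For Rb1 the log2 fold change was 0.78 (SE 0.53, 95% interval -0.47 to 2.02, edgeR adjusted p = 0.80). Leaving out WT pool 3 gave 1.52 (unadjusted p = 0.00436, adjusted p = 0.576), and leaving out WT pool 1 gave 0.48.

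Rbl2 encodes p130, the Rb family member that forms the DREAM repressor complex with E2F4 and MuvB proteins in quiescent cells. It lies on chromosome 8 at 91070057 to 91123844, plus strand, with 21.0% of its exon bases shared with Aktip or Gm45464. Rbl2 was at 54.5, 51.9 and 38.2 CPM in CKO pools 1, 2 and 3, against 23.0, 49.9 and 20.1 CPM in WT pools 1, 2 and 3. WT pools 1 and 3 were below every CKO pool, and WT pool 2 lay among them. Its log2 fold change was 0.64 (SE 0.42, 95% interval -0.35 to 1.62, edgeR adjusted p = 0.80). It was 1.22 without WT pool 2 (unadjusted p = 0.011, adjusted p = 0.469) and 0.48 without WT pool 1.

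Rbl1 encodes p107, which dividing cells express and E2F factors induce. It lies on chromosome 2 at 157145893 to 157204534, minus strand, and its promoter window with the E2F site is printed above. Rbl1 was at 5.84, 14.3 and 4.82 CPM in CKO pools 1, 2 and 3, against 0.574, 6.44 and 14.9 CPM in WT pools 1, 2 and 3. WT pools held both the lowest and the highest value. For Rbl1 the log2 fold change was 0.19 (SE 1.04, 95% interval -2.26 to 2.64, edgeR adjusted p = 0.969), and it was -0.36 without WT pool 1 and -0.45 without CKO pool 2.

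**Figure D3:**
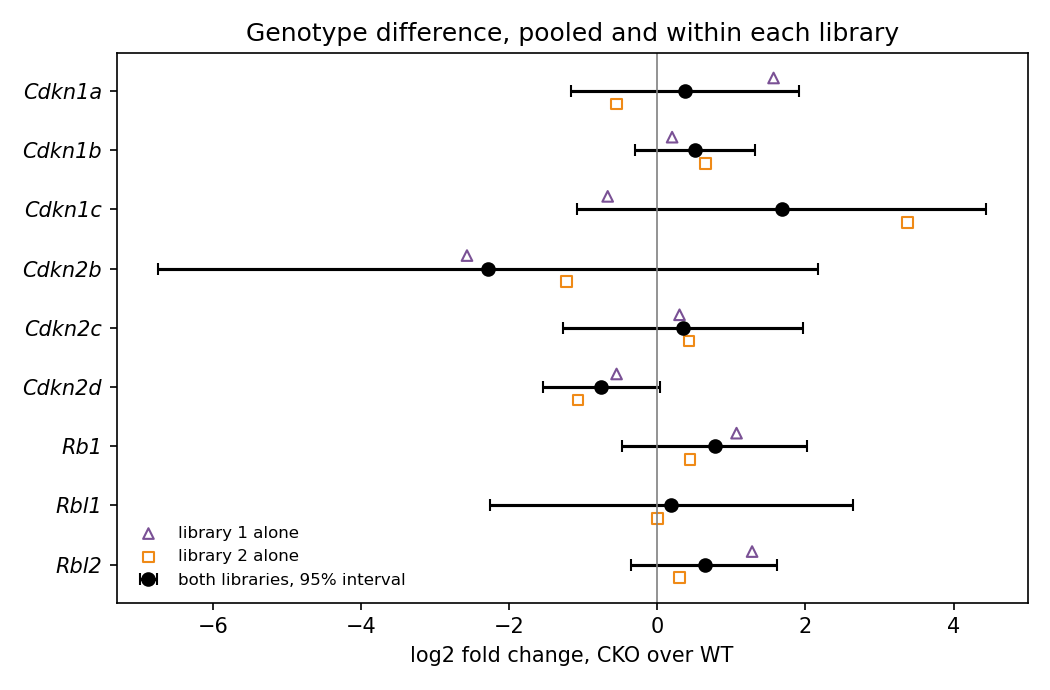
Log2 fold change of CKO over WT (horizontal axis) for the 9 tested genes, with filled points and 95% intervals from the edgeR fit, triangles for library 1 alone and squares for library 2 alone (Rbl1 has no triangle). All 9 intervals include 0, and triangle and square lie on opposite sides of 0 in Cdkn1a and Cdkn1c.

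Within each subfamily, the shares of the members in the summed CPM per kb were compared. Cdkn2d made up 81.2 ± 3.05% of the INK4 level in CKO pools and 86.1 ± 9.18% in WT pools (SD, n = 3 each), so it was the leading INK4 transcript in every pool, between 78.4% and 96.3%. The share of Cdkn2c was 13.9%, 18.7% and 15.5% in CKO pools 1, 2 and 3, against 12.2%, 5.88% and 3.41% in WT pools 1, 2 and 3. Every CKO pool was above every WT pool in that share, with an exact two-sided permutation p of 0.1 and an adjusted p of 0.9 over the 9 shares tested. In the Cip/Kip group, Cdkn1b made up 54.3 ± 11.5% in CKO pools and 57.8 ± 20.6% in WT pools, and Cdkn1a 34.4 ± 7.43% in CKO pools and 36.8 ± 17.7% in WT pools. Cdkn1c made up 11.3 ± 6.87% in CKO pools and 5.39 ± 4.61% in WT pools. In the Rb family, Rb1 made up 39.7%, 41.3% and 61.2% in CKO pools 1, 2 and 3, against 42.1 ± 16.6% in WT pools, and Rbl2 43.4 ± 9.83% in CKO pools and 47.3 ± 22.9% in WT pools. Rbl1 was the smallest part, with 9.21 ± 5.19% in CKO pools and 10.6 ± 8.98% in WT pools. Apart from Cdkn2c, the shares of the genotypes overlapped.

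The 2 libraries of a pool were repeat measurements of the same pool, and several of the 9 genes differed widely between them. The median gap between libraries was 1.41 on the log2 scale over the 9 genes, against 0.86 over all tested genes. It was smallest in Rb1 (0.42), Cdkn1b (0.52) and Cdkn2d (0.67), which were thus measured more evenly than the median gene. It was largest in Rbl1, at 5.24, a gap that 7 other tested genes reached. Rbl1 had 6, 1 and 132 reads in library 1 of CKO pools 1, 2 and 3, against 22, 6 and 0 reads in library 1 of WT pools 1, 2 and 3. In library 2, Rbl1 had 327, 635 and 113 reads in CKO pools 1, 2 and 3, against 7, 267 and 563 reads in WT pools 1, 2 and 3. The high Rbl1 values of CKO pools 1 and 2 and of WT pools 2 and 3 thus came from library 2 almost entirely.

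**Figure D4:**
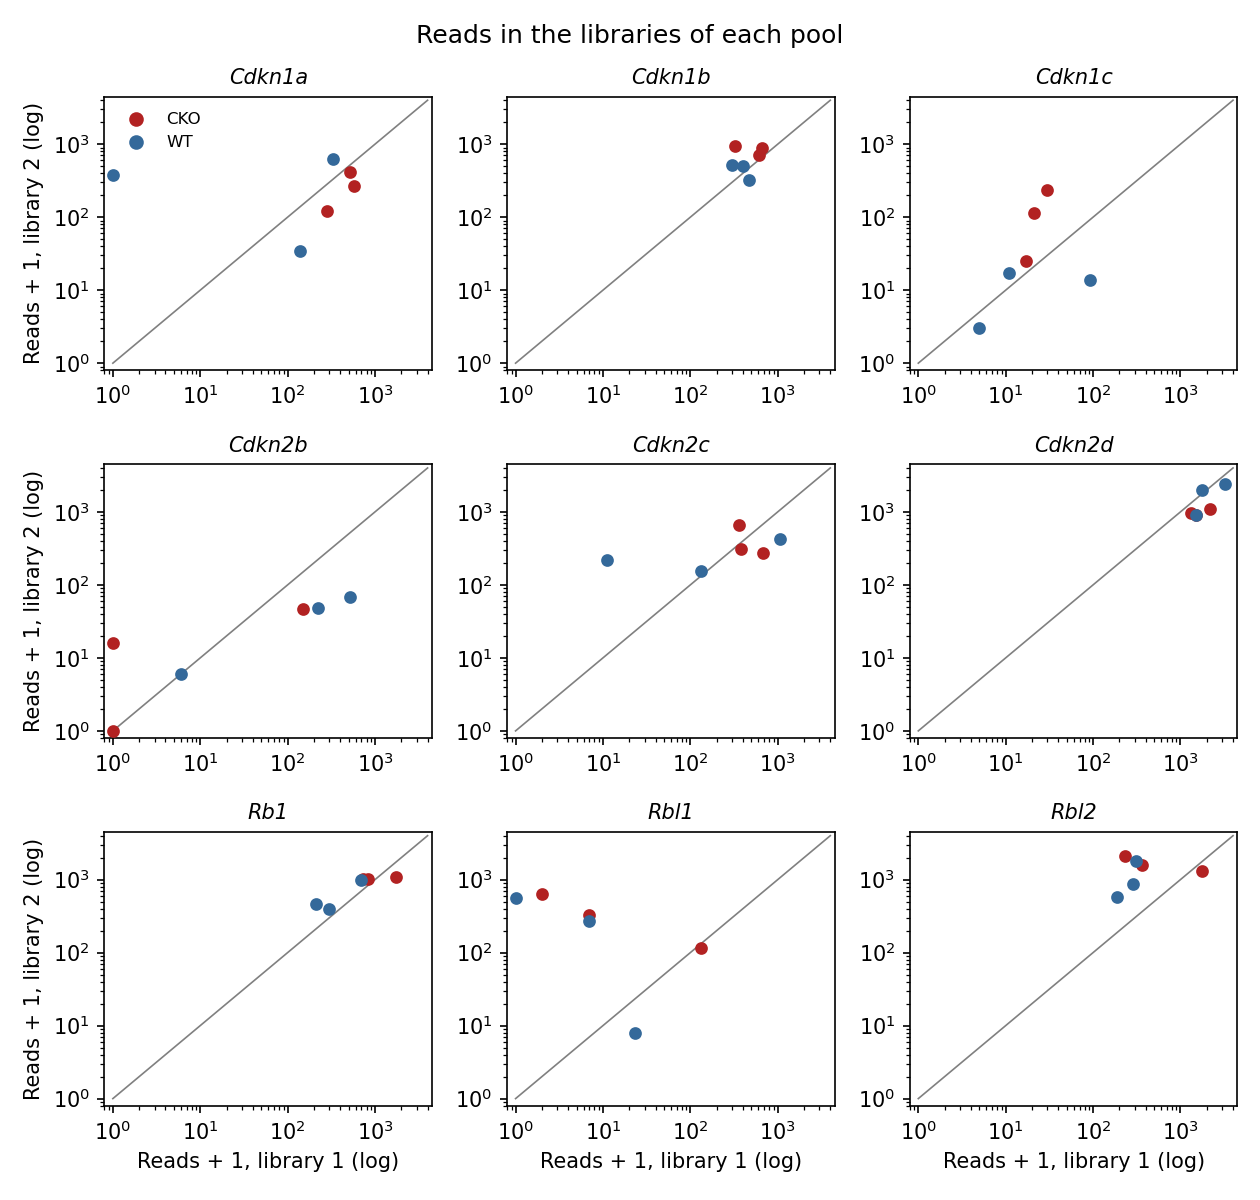
Reads plus 1 in library 1 (horizontal, log axis) and library 2 (vertical, log axis) of each pool for the 9 tested genes, with CKO pools in red, WT pools in blue and a grey line where both are equal. Points of Rb1, Cdkn1b and Cdkn2d lie near the line, while Rbl1 has 4 pools far above it, such as CKO pool 2 with 1 read in library 1 and 635 in library 2.

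The sign was the same in each library alone in 6 of the 8 genes tested in both. Both libraries came from the same pools, so a shared sign is no independent support, and no share over all genes is given. Cdkn2d had a log2 fold change of -0.55 in library 1 and -1.07 in library 2 (edgeR unadjusted p = 0.0183, adjusted p = 0.984). In library 2, CKO pools had 31.5, 37.5 and 39.0 CPM, against 80.9, 46.0 and 99.3 CPM in WT pools. Within library 2 every CKO pool was below every WT pool for Cdkn2d, and within library 1 the pools overlapped. The share of all genes separated within library 2 is not given, so this separation is no result about Cdkn2d. The pools of Cdkn1b, which did not overlap with both libraries summed, overlapped in library 1 and in library 2. Cdkn1b had 0.20 and 0.65, Rb1 1.07 and 0.44, and Rbl2 1.28 and 0.30, each for library 1 and library 2 in that order. Cdkn2c had 0.30 and 0.43 and Cdkn2b -2.57 and -1.23. The genes with opposite signs were Cdkn1a and Cdkn1c. Cdkn1a had 1.57 in library 1 and -0.55 in library 2. Cdkn1c had -0.67 in library 1 and 3.38 in library 2 (edgeR unadjusted p = 0.0311, adjusted p = 0.984). Cdkn1a had 0 reads in library 1 of WT pool 3 and 377 in its library 2. Rbl1 had too few reads for a test in library 1, and in library 2 its log2 fold change was 0.00.

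The library number itself went with the level of some genes. Cdkn2d was higher in library 1 than in library 2 in 6 of 6 pools, while Cdkn1b, Rb1 and Rbl2 were higher in library 2 in 5 of 6 pools. Rbl2 in WT pool 2, for example, was at 91.6 CPM in library 2 and 13.4 CPM in library 1.

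The genes that act with the inhibitors and the Rb family were described by 8 lists, and no list member had an adjusted p under 0.05 in edgeR (smallest 0.79). For comparison, 3.01% of all genes had an unadjusted p under 0.05 and a higher level in CKO, and 2.9% one with a lower level. Of 12 G1 and S phase cyclins and kinases, 7 were above 0 and 5 below, and 1 had an unadjusted p under 0.05. That gene was Ccne1, which encodes cyclin E1, the partner of CDK2. Ccne1 was at 7.60, 7.16 and 7.99 CPM in CKO pools 1, 2 and 3, against 2.16, 1.60 and 0.795 CPM in WT pools 1, 2 and 3. Every CKO pool was above every WT pool, as in 7.67% of all genes. The SD was 0.416 CPM in CKO pools and 0.685 CPM in WT pools. The log2 fold change of Ccne1 was 2.32 (SE 0.62, edgeR adjusted p = 0.79), with 0.55 in library 1 and 3.59 in library 2. DESeq2 gave Ccne1 an adjusted p of 0.0105, the one alternative in which it passed, and over all alternatives the adjusted p ran from 0.0105 to 0.993.

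Cdk4, the kinase that the INK4 proteins inhibit, was at 195, 183 and 182 CPM in CKO pools 1, 2 and 3, against 320, 200 and 274 CPM in WT pools 1, 2 and 3. Every CKO pool was below every WT pool, as in 8.17% of all genes. The log2 fold change of Cdk4 was -0.50 (SE 0.23, edgeR adjusted p = 0.79), with -0.41 in library 1 and -0.61 in library 2. Its sister kinase Cdk6 had a log2 fold change of 0.08, and the D cyclins Ccnd1, Ccnd2 and Ccnd3 had -0.38, 0.07 and 0.01. Cdk7, of the CDK-activating kinase, had -0.80 with overlapping pools.

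Of 10 E2F and DP factors, 9 were above 0 and 1 below, against 47.2% of all genes above 0. The median log2 fold change of these factors, some of which the Rb family binds, was 0.74. The unadjusted p was under 0.05 in 2 of the 10. Tfdp2, a dimer partner of E2F, averaged 40.0 ± 10.9 CPM in CKO pools and 16.2 ± 6.50 CPM in WT pools, with log2 fold change 1.30 (SE 0.42, unadjusted p = 0.0172 in edgeR). E2f6, a repressor that lacks the Rb-binding part, averaged 24.9 ± 2.13 CPM in CKO pools and 11.6 ± 4.01 CPM in WT pools, with log2 fold change 1.10 (SE 0.40, unadjusted p = 0.0277 in edgeR). E2f5, a repressor that binds Rbl2, averaged 28.3 ± 1.98 CPM in CKO pools and 18.1 ± 4.95 CPM in WT pools, with log2 fold change 0.65. In Tfdp2, E2f6 and E2f5 every CKO pool was above every WT pool. These were 3 of the 10 genes, beside 7.67% of all genes, and the edgeR adjusted p was 0.79 in each. The log2 fold changes of library 1 and library 2 were 0.48 and 1.95 in Tfdp2, 0.73 and 1.39 in E2f6, and 1.17 and 0.40 in E2f5.

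Of the 6 MuvB and B-Myb genes, 2 were above 0 and 4 below. Only the MuvB products of this list are parts of DREAM with Rbl2. Lin9 averaged 14.1 ± 3.77 CPM in CKO pools and 4.53 ± 1.72 CPM in WT pools. It alone of the 6 had every CKO pool above every WT pool, beside 7.67% of all genes. The log2 fold change of Lin9 was 1.63 (SE 0.53, unadjusted p = 0.0164 in edgeR). It was 3.0 in library 1 alone and 0.63 in library 2 alone. Its partners Lin52 and Lin37 had log2 fold changes of 0.56 and -0.53 with overlapping pools. Of 10 Rb co-repressors, 7 were above 0 and 3 below. Kdm5a is a histone demethylase first found as an Rb-binding protein. It averaged 92.7 ± 4.48 CPM in CKO pools and 48.0 ± 15.5 CPM in WT pools, with log2 fold change 0.95 (SE 0.29, unadjusted p = 0.0133 in edgeR). Among the 10, Kdm5a alone had every CKO pool above every WT pool, beside 7.67% of all genes. Arid4b had a log2 fold change of 0.65, and Smarca4, the ATPase of the BAF complex, -0.55, both with overlapping pools.

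**Figure D5:**
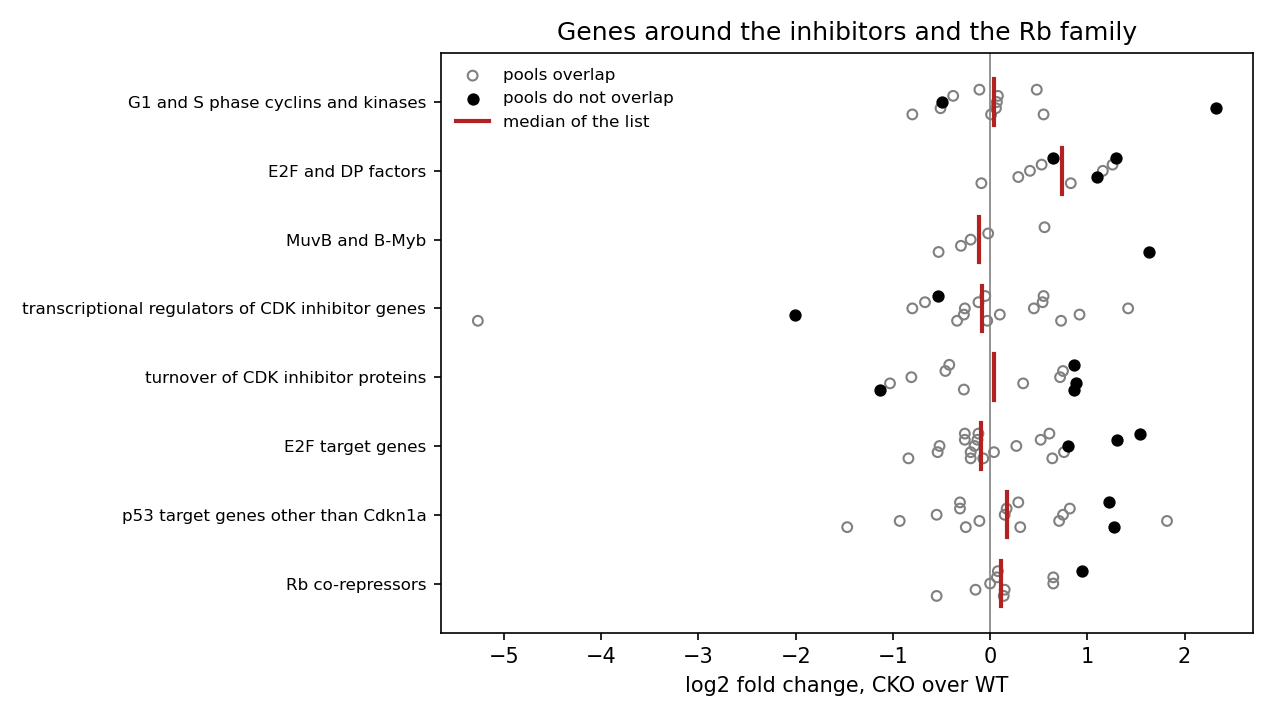
Log2 fold change of CKO over WT (horizontal axis) for each tested gene of the 8 lists, 1 point per gene, filled where the pools of the genotypes do not overlap, with a red bar at the median of the list and a grey line at 0. The E2F and DP factors have the highest median, 0.74, and the other 7 lists have medians from -0.11 to 0.17.

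Among 20 E2F target genes, 9 were above 0 and 11 below, with a median of -0.09, so the list as a whole lay near the median of all genes. Uhrf1, which guides DNA methylation after replication, averaged 21.1 ± 6.85 CPM in CKO pools and 8.49 ± 2.35 CPM in WT pools, with log2 fold change 1.31 (SE 0.46, unadjusted p = 0.0239 in edgeR). Mki67, which encodes the proliferation marker Ki-67, averaged 23.9 ± 5.82 CPM in CKO pools and 8.24 ± 3.76 CPM in WT pools. Mcm6, of the replicative helicase, averaged 93.6 ± 4.64 CPM in CKO pools and 53.8 ± 23.6 CPM in WT pools. In Uhrf1, Mki67 and Mcm6 every CKO pool was above every WT pool, and these were 3 of the 20 genes, beside 7.67% of all genes.

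Of 18 tested regulators of the inhibitor genes (Tbx2 and Tbx3 had too few reads), 7 were above 0 and 11 below. Foxo6 had an unadjusted p under 0.05, with 0.389 ± 0.146 CPM in CKO pools and 1.58 ± 0.755 CPM in WT pools. Foxo1, a FoxO factor that activates Cdkn1b in many cells, averaged 27.8 ± 2.64 CPM in CKO pools and 44.2 ± 13.6 CPM in WT pools, with overlapping pools and log2 fold change -0.67 (SE 0.33, edgeR adjusted p = 0.79). Trp73 had a log2 fold change of -5.27 that rested on WT pool 3, at 16.7 CPM, and it was -0.88 without that pool.

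Of 12 genes that turn over the inhibitor proteins, 6 were above 0 and 6 below. CKO and WT pools were fully separated in 4 of them, beside 15.8% of all genes. Cul4a, Cul4b and Rnf123 were higher in CKO, as 7.67% of all genes were, and Cks1b was lower, as 8.17% were. The unadjusted p in edgeR was 0.134 for Cul4b and 0.162 for Rnf123. Cul4a, a scaffold of the ubiquitin ligase that degrades p21, averaged 62.4 ± 13.9 CPM in CKO pools and 34.4 ± 8.17 CPM in WT pools (log2 fold change 0.86, SE 0.31, unadjusted p = 0.0284 in edgeR). Cks1b, the cofactor with which SKP2 recognises p27, averaged 13.5 ± 5.17 CPM in CKO pools and 29.5 ± 15.3 CPM in WT pools. For Cks1b the log2 fold change was -1.13 (SE 0.50, edgeR adjusted p = 0.79), and -0.60 without WT pool 1. Skp2 itself had 0.75 with overlapping pools, and Ubac1, of the ligase that degrades p27 in G1, had -1.03.

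Of 17 tested p53 targets other than Cdkn1a (Pmaip1 had too few reads), 10 were above 0 and 7 below, with a median of 0.17. Fas, a death receptor, averaged 6.22 ± 3.54 CPM in CKO pools and 1.76 ± 0.735 CPM in WT pools (log2 fold change 1.82, SE 0.73, unadjusted p = 0.0407 in edgeR), with overlapping pools. Polk, a translesion polymerase, averaged 17.5 ± 2.74 CPM in CKO pools and 7.52 ± 6.24 CPM in WT pools. Its log2 fold change was 1.22 (SE 0.69, unadjusted p = 0.122 in edgeR). Polk and Gadd45a (log2 fold change 1.27) had every CKO pool above every WT pool, 2 of the 17 genes beside 7.67% of all genes. Zmat3 had a log2 fold change of -1.47, which was -0.45 without WT pool 3, at 87.9 CPM.

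The gene with the highest 6-pool mean CPM per kb in each subfamily (Rb1 was above Rbl2 in 2 of the 6 pools) was also set beside the genes whose log2 CPM was most like its own over the 12 libraries, among 10263 genes. For Cdkn2d these were Higd1a, Acot13 and Clns1a, with Pearson's r of 0.958, 0.955 and 0.938. For Cdkn1b they were Dock3, Rdx and Ppm1e, with r of 0.91, 0.901 and 0.897. For Rb1 they were Tmem181a, Tmem181b-ps and Eif5, with r of 0.95, 0.928 and 0.92. Libraries of a pool share their cells and the values share library composition, so these are descriptions without a test.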

How the data were processed

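RNA of sorted cells was measured in 24 sequencing runs, which are 12 libraries of 6 pools. The deposited files hold raw read counts per gene symbol. Bowtie2, HTSeq and the build GRCm38 are named in the submitters' processing notes. Versions, annotation and strand settings are not given in the sources used here. The 5 summary lines that name no gene were left out of library sizes. Per pool they held 16.0% to 35.3% of reads outside genes (highest in CKO pool 2), 2.51% to 3.43% ambiguous reads and 11.2% to 21.7% unaligned reads. Reads with several alignments were listed as 0, so near-identical genes may share reads.

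Counts of the lanes of each library agreed within sampling noise (ratio of chi-square to degrees of freedom 0.986 to 1.01). Counts of the 2 libraries of a pool did not, with a ratio of 70.7 to 351. The counts of each pool's 2 libraries and 2 lanes were summed. Genotypes were compared with edgeR 4.0.16 (filterByExpr, TMM, robust quasi-likelihood F test, 3 against 3 pools, Benjamini-Hochberg over 21477 genes, threshold 0.05), checked on simulated data. CPM uses TMM-adjusted library sizes. DESeq2 1.42.0 and limma 3.58.1 served as alternatives, with other scaling, no filter, a replicate block, each pool left out and each library alone. Exact permutation tests were two-sided. Depth was 40366579 to 53984963 reads in genes, without molecular identifiers, so the upper limit given for undetected Cdkn2a covers counting error only. The intervals of the fold changes came from the edgeR fit and include the spread between pools. The common biological coefficient of variation between pools was 0.725.

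Exon lengths and positions are GENCODE M21 on GRCm38, matched for 96.4% of tested genes. Genes named are the 10 members, Notch2, Hes5, up to 3 genes of each list with the smallest unadjusted p and the 3 most like each subfamily's leading gene by length-corrected level. For the Cip/Kip, INK4 and Rb groups those leaders, by the mean of the 6 pools, were Cdkn1b, Cdkn2d and Rb1. Other list members with values were chosen after their values were seen. The members and lists were chosen with earlier results of these data known.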

Additional observations from a re-analysis of the deposited data

How the results depend on the processing

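No tested inhibitor or Rb family gene passed an adjusted p of 0.05 under any of the 13 alternatives. The lowest adjusted p was 0.469 (Cdkn2d and Rbl2, each without WT pool 2), and at most 2 of the genes had an unadjusted p under 0.05. There were 2 without WT pool 2, where 2396 of 23096 genes had such a p. There were also 2 in library 2 alone, where 667 of 19247 genes did. Over all genes the count past the threshold was 0 in edgeR and limma-voom and 124 in DESeq2, with 80 higher and 44 lower. The deviations of same-numbered pools correlated at 0.056, 0.022 and -0.028, and those of differently numbered pools at -0.087 to 0.054. Low correlations cannot show whether pools were collected in pairs, so the pool number was a block in an alternative only. With the replicate block the count of genes past the threshold was 0, the count at an unadjusted p under 0.05 was 889 against 1269, and the median log2 fold change of the 9 genes was 0.75. That median was 0.38 in the reported fit and 0.12 to 0.55 with a pool left out. Cdkn1b, Cdkn2b, Cdkn2d, Rb1 and Rbl2 kept their sign in every alternative. The sign changed in Rbl1 (-0.45 to 1.24 with a pool left out, 0.00 in library 2 alone), Cdkn2c (-0.03 to 1.48 with a pool left out), Cdkn1c (-0.67 in library 1 alone) and Cdkn1a (-0.55 in library 2 alone). Only Cdkn1b did not overlap between genotypes in the reported fit, and it overlapped in each library alone. The count was 0 in library 1 alone, 2 in library 2 alone (Cdkn1c and Cdkn2d) and 1 to 4 with a pool left out, where fewer pools make separation easier. The share of all genes separated in these settings is not given, so these counts are no result about the genes. Differences in share, in percentage points, were -3.49 for Cdkn1b (-20.1 in library 1 alone, 5.31 in library 2 alone, -14.5 to 5.85 with a pool left out), 5.31 for Rb1 (5.04, 3.31, -2.74 to 13.8) and -4.89 for Cdkn2d (-2.20, -10.1, -8.70 to 0.206). The cause of these changes was not tested. Cdkn2a, with 1 read, could not be tested at this depth.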
